A study of Sus scrofa with 37 samples.

Results

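The genes described are the translation initiation and elongation factors of pig skeletal muscle, taken as every row of the deposited count table whose symbol begins with EIF1 to EIF6, EEF1 or EEF2. The rule found 50 of 9418 rows, including the eIF4E-binding proteins and the eIF2 kinases as regulators, and all 50 were among the 9411 genes that passed the filter on low counts. The rule uses symbols alone. Muscle came from 8 Bama minipigs, a miniature breed, after contusion, a blunt mechanical injury. There were 4 libraries at each of 7 times after injury, every 4 h up to 24 h and then at 48 h, and 9 libraries of muscle labelled as control, 37 in all. The treatment field reads as mechanical injury for controls too, and the handling of their muscle is not stated. Which libraries came from the same animal is not stated either, so each p-value measures the spread between libraries, which may in part be technical.

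Translation of most mRNAs starts when eIF4E binds the cap, the scaffold eIF4G joins it and the helicase eIF4A opens the leader, while eIF3 and eIF2 with the initiator tRNA ride on the small ribosomal subunit. Hypophosphorylated eIF4E-binding proteins keep eIF4E away from eIF4G, and phosphorylation of eIF2 by its kinases blocks its recharging by eIF2B and lowers initiation. In elongation eEF1A brings aminoacyl-tRNAs, eEF1B recharges it and eEF2 moves the ribosome along, a step that eEF2 kinase slows. Skeletal muscle is known for a switch from eEF1A1 to eEF1A2 as fibres mature. The data are mRNA levels, in which neither phosphorylation nor the rate of translation is measured.

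Column totals of the table ran from 9.86 to 22.88 M counts, a share of each library whose rule of selection is not given. Members took between 1.59 and 2.72% of them. Levels are given as CPM, counts per M counts after TMM scaling, and a change is the log2 ratio of an injured time over control from edgeR's quasi-likelihood model of all 37 libraries. Calls are those at a Benjamini-Hochberg adjusted p under 0.05 over all genes tested. In earlier work on these data the libraries fell into 5 sets by column total and by the level of C1QBP, NDUFAF8 and ND6. All 4 libraries at 16 h lay in 1 set and all 4 at 48 h in another, and 2 sets hold no control. No member was called for a set against the reference set, where 65, 304, 9 and 1 of the 9411 genes tested were called. At such rates few or no calls are expected among 50 genes. With the sets as a term 71 of 104 calls of named members were kept. The summed level of the 4 skeletal muscle fibre markers in the table (of 9 listed, CKM, DES, MYH7 and TNNT3) was 14623 to 29041 CPM at 24 h, against 44196 to 75829.8 CPM in controls. The sum of all 9 macrophage markers was 251 to 433 CPM at 16 h, against 48.0 to 156 CPM in controls. For 5 of 7 neutrophil markers the sum was 17.9 to 296 CPM at 8 h, against 0.815 to 12.0 CPM in controls. None of the markers of these lists in the table was at 0 in every library of a group, and their part in the members' changes was not tested. In whole tissue, fewer cells of a type and less RNA per cell cannot be told apart.

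Most of the 50 genes were called at some time, and the share called in either direction was about that of the whole table. By direction they differed: higher calls outnumbered lower calls among members at every time but 48 h. Among all genes the shares called higher and lower were close to each other from 4 to 24 h. At 4 h 9 members were called, 7 higher and 2 lower, where 18.3% of all genes tested were called, 9.22% higher and 9.06% lower. The number was 24 at 8 h (19 higher and 5 lower, against a background of 54.0%), 15 at 12 h (12 higher and 3 lower, 31.0%) and 24 at 16 h (13 higher and 11 lower, 53.1%). It was 24 at 20 h (19 higher and 5 lower, 51.5%), 29 at 24 h (20 higher and 9 lower, 53.9%) and 11 at 48 h (5 higher and 6 lower, 20.3%). As shares of the 50 members these counts are 18.0, 48.0, 30.0, 48.0, 48.0, 58.0 and 22.0%, so at no time did the share of members called stand far from that of all genes. Among all genes 25.8% were called higher and 28.2% lower at 8 h, 16.3% and 14.7% at 12 h, and 25.3% and 27.8% at 16 h. The shares called higher and lower were 25.4 and 26.2% at 20 h, 26.8 and 27.1% at 24 h and 12.8 and 7.45% at 48 h. The median log2 change of the 50 members was 0.15 at 8 h, 0.23 at 20 h and 0.22 at 24 h, beside -0.07, -0.04 and -0.02 for all genes, and -0.03 at 48 h beside -0.02.

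Directions are relative to TMM scaling. When libraries were scaled by column totals, the change of the median gene shifted by 0.48 (24 h), 0.35 (16 h and 48 h), 0.33 (20 h) and -0.15 (4 h). On that scale the members called higher and lower were 3 and 8 (4 h), 16 and 7 (8 h), 8 and 4 (12 h), 25 and 3 (16 h), 28 and 2 (20 h), 34 and 2 (24 h) and 17 and 0 (48 h). The shares of all genes called higher and lower on that scale were 3.76 and 14.2% (4 h), 20.3 and 29.3% (8 h), 38.7 and 14.4% (16 h), 38.5 and 15.5% (20 h), 48.2 and 12.5% (24 h) and 32.4 and 3.17% (48 h), and at 12 h 25.4% were called in either direction, 14.3% lower. The whole table thus shifted with the members. With the 5 library sets as a term the member counts were 1 and 0 at 4 h, 11 and 3 at 16 h and 3 and 2 at 48 h, where 1.83 and 0.924%, 11.5 and 15.9% and 9.58 and 2.19% of all genes were called. Of the 11 members called lower at 16 h, EIF3H, EEF1G and EIF2D were still called with that term. At 8 h it left 18 higher and 1 lower, EIF2AK4, where 19.8 and 22.3% of all genes were called. With that term the counts were 8 and 6 at 12 h, 16 and 9 at 20 h and 14 and 10 at 24 h. The shares of all genes there were 13.7 and 12.7%, 24.5 and 24.8%, and 23.5 and 23.6%. The members' median change was then 0.22 at 8 h, 0.08 at 20 h and 0.06 at 24 h, beside -0.05, -0.04 and -0.03 for all genes. Single libraries carried the counts at 4 h and 48 h. Without 4 h replicate 2 the count at 4 h was 2. At 48 h it was 1 without 48 h replicate 1, 3 without 48 h replicate 3, and 7 without control replicate 3 or control replicate 8.

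**Figure D1:**
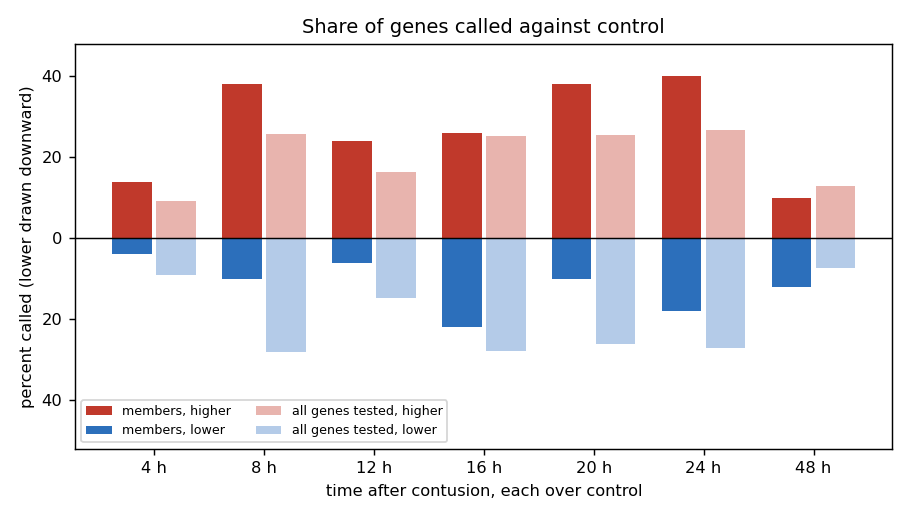
Percent of the 50 translation factors and of all genes tested that were called higher or lower than control at each time after injury (edgeR adjusted p under 0.05). The members' bars at 24 h come from 20 higher and 9 lower calls, beside 26.8 and 27.1% of all genes.

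Tested over the 7 times together, 40 of the 50 members differed from control (background 83.2%). Called at 1 or more single times were 42 members, 25 of them higher only, 15 lower only and 2 both ways (EIF4E3 and EIF1B), and 8 were called at none. EIF4A1 and EIF6 were the 2 called at all 7 times. Each member's largest called change fell at 8 h for 14 of the genes called higher and 1 called lower, at 16 h for 1 and 7, and at 24 h for 6 and 3. It fell at 12 h for 0 and 2, at 20 h for 4 and 1 and at 48 h for 0 and 3. Shares of all genes were not computed for these counts or for those over single times before them, so they describe the members alone. The 4 libraries of a time lay above all 9 controls for 2 members at 4 h (2.28% of all genes), 15 at 8 h (13.8%), 6 at 12 h (6.04%) and 10 at 16 h (17.2%). They did so for 10 members at 20 h (14.2%), 14 at 24 h (16.4%) and 0 at 48 h (1.41%). Below all controls lay 0 members (4 h, 2.44% of all genes), 0 (8 h, 12.2%), 1 (12 h, 4.46%), 8 (16 h, 15.9%), 0 (20 h, 11.8%), 4 (24 h, 14.7%) and 1 (48 h, 0.818%). The 4, 8 and 20 h times thus had members above all controls and none below them.

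**Figure D2:**
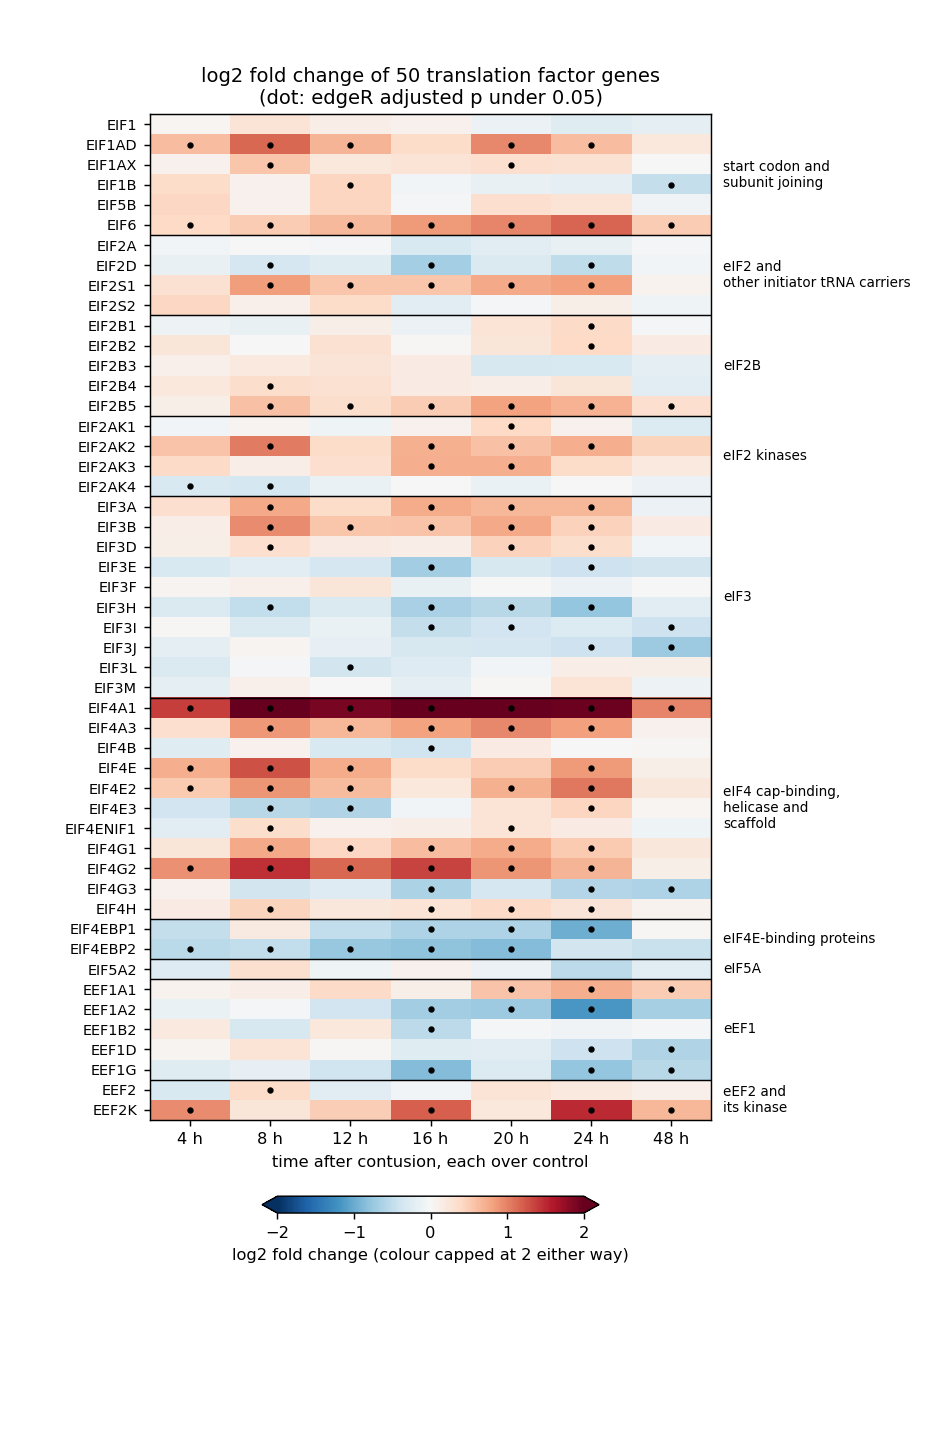
Log2 change over control of all 50 members (rows, grouped by role) at the 7 times after injury (columns), with a dot where edgeR's adjusted p was under 0.05. EIF4A1 carries a dot at every time, from 1.38 at 4 h over 2.65 at 8 h to 0.98 at 48 h, while both eIF4E-binding proteins carry dots on the lower side alone.

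The eIF4 group, which reads the cap and prepares the mRNA, held the largest rises. EIF4A1, the main cytosolic helicase of cap-dependent initiation (chromosome 12, 52868479 to 52874248 in Sscrofa11.1), rose 6.26-fold at 8 h. EIF4G2, a scaffold related to eIF4G that lacks the eIF4E-binding site, and EIF4E, the cap-binding protein itself, also rose most at 8 h. EIF4G3 fell at 16, 24 and 48 h.

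EIF4A1 stood at 72.4 to 131 CPM in the 9 controls (median 97.4), at 147, 389, 383 and 136 CPM at 4 h and at 831, 802, 578 and 325 CPM at 8 h. Its 4 libraries held 554, 329, 251 and 377 CPM at 12 h, 495, 542, 323 and 301 CPM at 16 h and 238, 420.4, 463 and 684 CPM at 20 h. They held 439, 302, 463 and 374 CPM at 24 h and 377, 107, 217 and 99.6 CPM at 48 h. All 4 libraries lay above every control at each time from 4 to 24 h, although 2 libraries at 4 h lay close to the highest control, and at 48 h 2 libraries were within the controls. The log2 change was 1.38 ± 0.31 (SE, edgeR adjusted p = 0.00262) at 4 h, 2.65 ± 0.30 (SE, edgeR adjusted p = 4.57e-08) at 8 h, 2.03 ± 0.30 (SE, edgeR adjusted p = 3.49e-06) at 16 h and 1.96 ± 0.30 (SE, edgeR adjusted p = 4.61e-06) at 24 h. It was 0.98 ± 0.31 (SE, edgeR adjusted p = 0.0231) at 48 h, a call that was lost without 48 h replicate 1 (0.47) or 48 h replicate 3 (0.92). No alternative ended the calls between 4 and 24 h.

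EIF4G2 ranged over 898 to 1665 CPM in the 9 controls (median 1206). It reached 1431, 2995, 2458 and 2371 CPM at 4 h, 3324, 3632, 3071 and 3492 CPM at 8 h and 2869.6, 2749, 2036 and 3251 CPM at 12 h. Later libraries held 3584, 3089.9, 3129 and 2697 CPM at 16 h, 2079, 1982, 2257 and 2686 CPM at 20 h, 1807, 1703, 2063 and 2282 CPM at 24 h and 1742, 1167, 1517 and 914 CPM at 48 h. The 4 libraries at each time from 8 to 24 h exceeded every control, 3 of 4 did so at 4 h and 1 of 4 at 48 h. Its log2 change was 1.46 ± 0.17 (SE, edgeR adjusted p = 6.91e-08) at 8 h and 1.35 ± 0.17 (SE, edgeR adjusted p = 3.74e-07) at 16 h. It was 0.92 ± 0.18 (SE, edgeR adjusted p = 0.000699) at 4 h and 0.68 ± 0.18 (SE, edgeR adjusted p = 0.00175) at 24 h, both of which missed the threshold with the library sets as a term (0.78 and 0.59). At 48 h the change of 0.12 was not called (95% interval -0.24 to 0.49).

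EIF4E averaged 217 ± 28.2 CPM at 8 h and 90.3 ± 14.9 CPM in controls (SD, n = 4 and n = 9). Its libraries held 252, 229.5, 194 and 194 CPM at 8 h, all above the highest control of 119 CPM, and 77.7, 184, 227 and 107 CPM at 4 h, of which 2 were within the controls. The change was 1.27 ± 0.23 (SE, edgeR adjusted p = 2.98e-05) at 8 h, and it held in every alternative. Calls at 4 h (0.72) and 12 h (0.74) rested on single libraries. Without 4 h replicate 3 the first was 0.45 and without 4 h replicate 2 0.61, and without 12 h replicate 4 the second was 0.54 and without 12 h replicate 1 0.68. With the library sets as a term the calls at 4 h (0.42), 12 h (0.57) and 24 h (0.58, against 0.85 without that term) were lost. The one at 4 h was also lost under column totals (0.59).

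EIF4A3, the helicase of the exon junction complex, rose at each time from 8 to 24 h, with log2 changes between 0.66 at 12 h and 0.96 at 20 h. It averaged 96.1 ± 22.1 CPM at 20 h, against 49.4 ± 5.55 CPM in controls (SD, n = 4 and n = 9), and the change there was 0.96 ± 0.13 (SE, edgeR adjusted p = 6.4e-07). These calls held in every alternative. EIF4E2, a second cap-binding protein known in mammals to repress translation, was called higher at 4, 8, 12, 20 and 24 h, with its highest log2 change, 1.06, at 24 h. The EIF4E2 call at 4 h was lost under column totals (0.38) and with the library sets as a term (0.35). The scaffold EIF4G1 was called higher from 8 to 24 h (0.41 to 0.76), but its call at 12 h was lost under column totals (0.43) and with the sets (0.47). EIF4H, which stimulates the helicase, was called higher at 8, 16, 20 and 24 h (0.26 to 0.45), and EIF4ENIF1, which carries eIF4E to the nucleus, at 8 and 20 h (0.35 and 0.28). With the library sets as a term EIF4H was not called at 16 h (0.24) and 24 h (0.22). EIF4ENIF1 was not called at 20 h with that term (0.18), nor at 8 h under column totals (0.28). EIF4B, the other helicase cofactor, was called lower at 16 h alone (-0.40). Under column totals its change there was -0.03. On that scale 8 of the 11 genes of the eIF4 group were called higher and 0 lower at 16 h. Of all genes 38.7% were called higher and 14.4% lower.

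**Figure D3:**
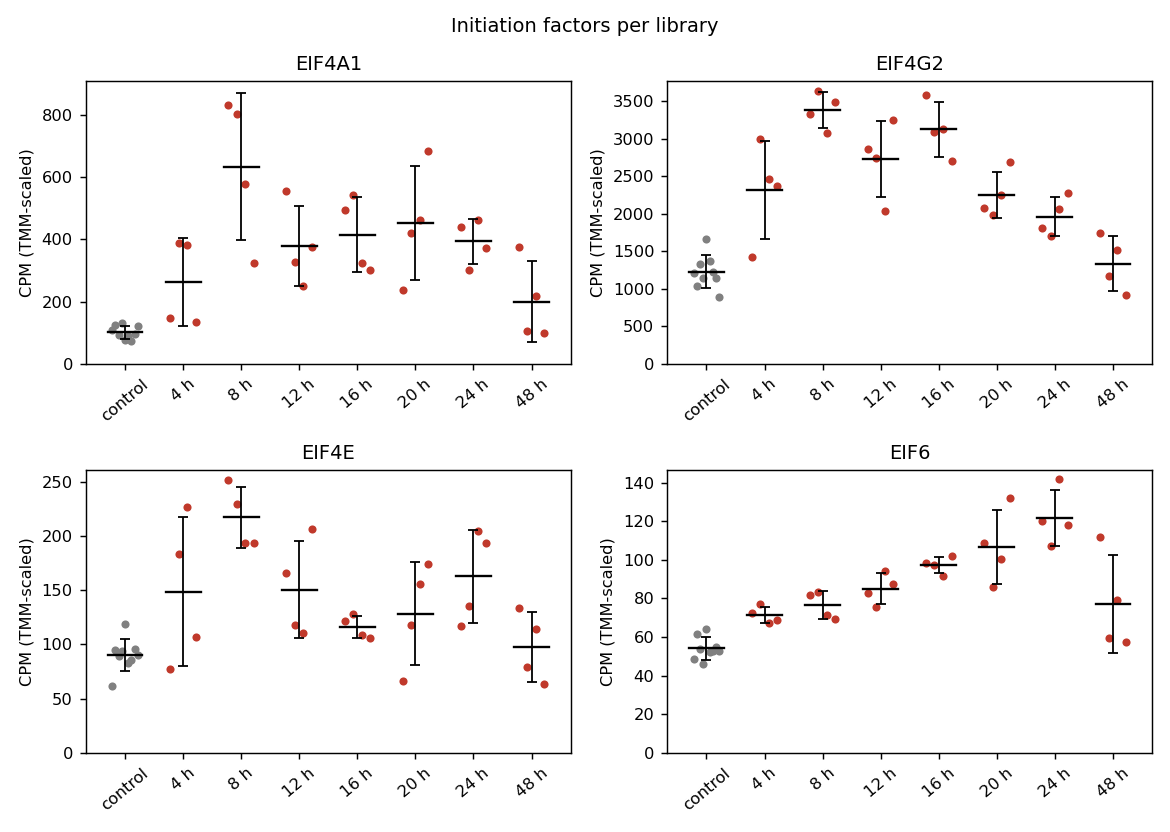
CPM of EIF4A1, EIF4G2, EIF4E and EIF6 in each library (points) by group, with the mean and SD (line and bar), controls in grey and injured times in red. EIF4A1, EIF4G2 and EIF4E stand highest on average at 8 h, and EIF6 at 24 h, where its 4 libraries lie between 107 and 142 CPM.

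Control libraries held 37.6 to 59.2 CPM (median 46.5) of EIF4E3. After injury it had 33.4, 30.1, 39.9 and 42.7 CPM at 4 h, 24.8, 26.9, 32.5 and 46.1 CPM at 8 h, 29.9, 38.4, 30.1 and 27.5 CPM at 12 h and 45.2, 45.0, 50.0 and 44.0 CPM at 16 h. From 20 h on it had 50.3, 63.1, 61.4 and 56.6 CPM at 20 h, 54.9, 74.1, 53.0 and 74.8 CPM at 24 h and 39.9, 50.4, 55.9 and 49.0 CPM at 48 h. The weak cap binder EIF4E3 thus had 3 libraries below every control at 8 h and at 12 h, and 2 libraries above every control at 24 h. It fell at 8 h (-0.55 ± 0.15, SE, edgeR adjusted p = 0.00287) and at 12 h (-0.60 ± 0.15, SE, edgeR adjusted p = 0.00387) and rose at 24 h (0.43 ± 0.14, SE, edgeR adjusted p = 0.0113). The rise rested on 24 h replicates 2 and 4, without which it was 0.35 and 0.34 and no longer called. With the library sets as a term the change at 8 h was -0.33 and that at 24 h 0.24, neither called. Over the 28 injured libraries its slope on log2 hours was 0.24 ± 0.07 per doubling of time (SE, edgeR adjusted p = 0.00825).

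EIF4G3 stood at 196 to 373 CPM in the 9 controls (median 288), at 239, 296, 354 and 406 CPM at 4 h and at 184, 211, 237 and 327 CPM at 8 h. Its 4 libraries held 213, 254, 233 and 321 CPM at 12 h, 187, 189.7, 223 and 188 CPM at 16 h and 208, 244, 264 and 259 CPM at 20 h. They held 160.3, 215, 228 and 212 CPM at 24 h and 161, 225, 196 and 217 CPM at 48 h. EIF4G3, a scaffold close to EIF4G1, had 3 libraries below every control at 16 h, and the groups overlapped at 24 h and 48 h. Its changes were -0.64 ± 0.17 (SE, edgeR adjusted p = 0.00192) at 16 h, -0.59 ± 0.17 (SE, edgeR adjusted p = 0.00357) at 24 h and -0.62 ± 0.17 (SE, edgeR adjusted p = 0.00874) at 48 h. Under column totals none of them was called (-0.27, -0.09 and -0.28), and the one at 48 h was also lost without 48 h replicate 1 (-0.53). With the library sets as a term the change at 16 h was -0.21 and not called. The ratio of EIF4G1 to EIF4G3 counts, which no scaling touches, averaged 3.5 ± 0.544 at 16 h and 1.5 ± 0.303 in controls (SD, n = 4 and n = 9), with no adjustment for gene length. The lowest ratio at 16 h was 2.99 and the highest in controls 1.98.

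Both eIF4E-binding proteins in the table fell, EIF4EBP2 from 4 to 20 h and EIF4EBP1 from 16 to 24 h. EIF4EBP2 ranged over 187 to 296 CPM in the 9 controls (median 225). It reached 148, 169, 138 and 201 CPM at 4 h, 146, 137, 147 and 246 CPM at 8 h and 116, 161, 123 and 163 CPM at 12 h. Later libraries held 115, 102, 171 and 153 CPM at 16 h, 206, 117, 104 and 93.1 CPM at 20 h, 159, 201, 189.6 and 193 CPM at 24 h and 129.9, 200.0, 160.5 and 211 CPM at 48 h. Every library at 12 h and at 16 h was below the lowest control, 3 of 4 were so at 4, 8 and 20 h, while 3 at 24 h and 2 at 48 h lay within the controls. The log2 change was -0.76 ± 0.19 (SE, edgeR adjusted p = 0.00398) at 12 h, -0.81 ± 0.19 (SE, edgeR adjusted p = 0.000828) at 16 h and -0.87 ± 0.20 (SE, edgeR adjusted p = 0.000423) at 20 h. The calls at 4 h (-0.54) and 8 h (-0.50) each ended with 1 library less: the change was -0.46 without 4 h replicate 3 and -0.41 without 8 h replicate 2, and 8 other single libraries did the same at 4 h and 2 at 8 h. With the library sets as a term the changes at 8 h and 16 h were -0.39 and -0.60, neither called.

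Control libraries held 80.0 to 187 CPM (median 99.2) of EIF4EBP1. After injury it had 123, 58.6, 100.4 and 66.8 CPM at 4 h, 149.7, 141, 118 and 137 CPM at 8 h, 81.2, 85.3, 104 and 72.8 CPM at 12 h and 67.0, 73.7, 77.6 and 96.2 CPM at 16 h. From 20 h on it had 99.1, 83.4, 72.0 and 60.4 CPM at 20 h, 75.0, 75.9, 36.1 and 59.9 CPM at 24 h and 82.0, 179, 79.7 and 153 CPM at 48 h. EIF4EBP1 libraries at 24 h were all below the lowest control, and at 20 h and 16 h the groups overlapped. The change was -0.97 ± 0.26 (SE, edgeR adjusted p = 0.002) at 24 h, and it held in every alternative. At 16 h (-0.62) and 20 h (-0.62) the calls ended without control replicate 2, 5 or 7 or without any 1 of 3 injured libraries, at values between -0.66 and -0.52, and under column totals the changes were -0.24 and -0.29. Neither was called with the library sets as a term (-0.69 and -0.43). At 8 h the change was 0.18 (95% interval -0.32 to 0.67). The ratio of EIF4E to EIF4EBP2 counts averaged 1.38 ± 0.431 at 8 h and 0.391 ± 0.109 in controls (SD, n = 4 and n = 9). The lowest at 8 h was 0.788 and the highest control 0.634, without adjustment for length.

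**Figure D4:**
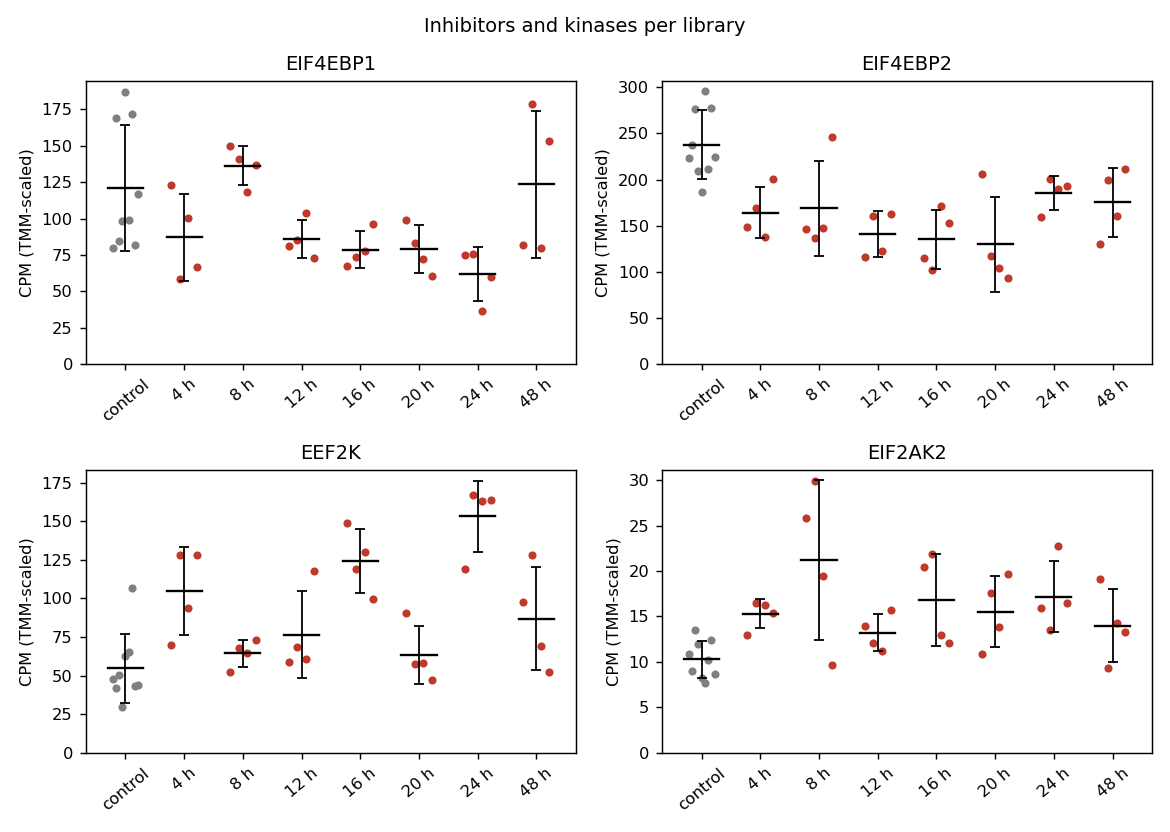
CPM of the regulators EIF4EBP1, EIF4EBP2, EEF2K and EIF2AK2 in each library (points) by group, with the mean and SD (line and bar). EIF4EBP1 lies below all controls at 24 h and EIF4EBP2 at 12 h and 16 h, while EEF2K lies above all controls at 24 h.

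Of the eIF2 subunits, EIF2S1, the alpha subunit that the eIF2 kinases phosphorylate, was called higher from 8 to 24 h. It averaged 133 ± 20.9 CPM at 8 h, against 74.2 ± 10.2 CPM in controls (SD, n = 4 and n = 9), and its log2 change was 0.84 ± 0.17 (SE, edgeR adjusted p = 9.91e-05) at 8 h and 0.82 ± 0.17 (SE, edgeR adjusted p = 0.000127) at 24 h. The call at 12 h (0.56) was lost without 12 h replicate 1 (0.44), under column totals (0.56) and with the library sets as a term (0.5). EIF2S2, the beta subunit, was called at no time, with changes from -0.23 at 16 h to 0.41 at 4 h. EIF2D, which can deliver initiator tRNA without eIF2, fell at 16 h (-0.68 ± 0.13, SE, edgeR adjusted p = 7.95e-05), and its lower calls at 8 h (-0.33) and 24 h (-0.51) were less firm. The one at 8 h was lost without 8 h replicate 2 (-0.30), replicate 1 or replicate 3 (-0.31 each), control replicate 5 (-0.29) or control replicate 7 (-0.30), and under column totals the one at 24 h was -0.03. EIF2A was called at no time (-0.30 to 0.00).

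In the guanine exchange factor eIF2B, the catalytic epsilon subunit EIF2B5 was called higher at 6 of 7 times. It averaged 93.0 ± 5.29 CPM at 20 h, against 53.1 ± 10.2 CPM in controls (SD, n = 4 and n = 9), a change of 0.81 ± 0.12 (SE, edgeR adjusted p = 2.4e-06). At 8, 16 and 24 h the change was 0.59, 0.51 and 0.70, and these calls held in every alternative. The calls at 12 h (0.35) and 48 h (0.34) did not, the first at 0.28 without 12 h replicate 1 and 0.29 without 12 h replicate 2, the second at 0.23 without 48 h replicate 1 and between 0.23 and 0.35 without any 1 of 8 libraries in all. EIF2B4, the delta subunit, was called higher at 8 h (0.35, and 0.30 and not called without 8 h replicate 4), and EIF2B1 and EIF2B2 at 24 h (0.38 and 0.40). With the library sets as a term the changes of EIF2B1 and EIF2B2 at 24 h were 0.18 and 0.19, neither called. EIF2B3, the gamma subunit, was called at no single time (-0.32 at 20 h to 0.26 at 12 h), yet it differed over the 7 times together (edgeR adjusted p = 0.00894). EIF2B5 lies on chromosome 13 (122060408 to 122070327), as does EIF4G1 (122203488 to 122225371).

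The 4 eIF2 kinases, each known for its own trigger, moved differently. EIF2AK2 (PKR), activated by double-stranded RNA, averaged 21.2 ± 8.85 CPM at 8 h, against 10.3 ± 2.03 CPM in controls (SD, n = 4 and n = 9), and its log2 change was 1.04 ± 0.21 (SE, edgeR adjusted p = 0.000159). Its libraries at 8 h held 25.8, 29.9, 19.5 and 9.60 CPM, of which replicate 4 lay within the controls (7.72 to 13.5 CPM) and the other 3 above them. Its higher calls at 16, 20 and 24 h (0.59 to 0.73) were lost in 1 or more alternatives, the one at 20 h without 20 h replicate 2 (0.52) or 20 h replicate 4 (0.45). EIF2AK3 (PERK), which senses unfolded protein in the endoplasmic reticulum, rose at 16 h (0.72 ± 0.16, SE, edgeR adjusted p = 0.000477) and 20 h (0.72 ± 0.16, SE, edgeR adjusted p = 0.000489). EIF2AK1 (HRI), the haem-regulated kinase, was called higher at 20 h alone (0.40), a call that ended without any 1 of 6 libraries and stood at 0.28 without 20 h replicate 1. The spans of EIF2AK1 and AIMP2, and those of EIF2AK4 and SRP14, overlap in the annotation, so reads in the overlap may not be told apart.

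EIF2AK4 ranged over 19.3 to 28.0 CPM in the 9 controls (median 23.7). It reached 23.0, 17.7, 20.4 and 16.8 CPM at 4 h, 17.9, 19.7, 18.9 and 19.0 CPM at 8 h and 21.8, 20.7, 24.0 and 21.3 CPM at 12 h. Later libraries held 22.3, 23.7, 24.1 and 26.7 CPM at 16 h, 20.7, 22.8, 22.5 and 21.1 CPM at 20 h, 23.8, 23.1, 23.4 and 25.4 CPM at 24 h and 23.2, 21.7, 21.0 and 22.8 CPM at 48 h. EIF2AK4 (GCN2), which responds to uncharged tRNA, had 3 libraries below every control at 8 h and 2 at 4 h. The spread of the controls was the smallest of the 50 members, a coefficient of variation of 10.4%. Its change was -0.35 ± 0.09 (SE, edgeR adjusted p = 0.00256) at 8 h, and -0.30 ± 0.09 (SE, edgeR adjusted p = 0.0256) at 4 h, a call lost without 4 h replicate 2 (-0.26) or 4 h replicate 4 (-0.24). From 12 h on no change was called.

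The subunits of eIF3, the platform that holds the small subunit and the mRNA together, were called in both directions, as were all genes. Of the 10 in the table, 3 were called higher and 1 lower at 8 h, 2 and 3 at 16 h, and 3 and 3 at 24 h. At 20 h the counts were 3 and 2, and at 48 h 0 and 2. Of all genes, 25.8 and 28.2% were called higher and lower at 8 h, 25.3 and 27.8% at 16 h and 25.4 and 26.2% at 20 h. The shares were 26.8 and 27.1% at 24 h and 12.8 and 7.45% at 48 h. Scaled by column totals the split was 2 and 2 at 8 h, 3 and 0 at 16 h, 4 and 0 at 20 h, 5 and 0 at 24 h and 2 and 0 at 48 h. No eIF3 subunit was thus called lower from 16 h on, and these falls depend on the scale. Of all genes 38.7, 38.5, 48.2 and 32.4% were called higher at 16, 20, 24 and 48 h on that scale. Called lower were 14.4, 15.5, 12.5 and 3.17%. EIF3A, a core subunit, rose at 8, 16, 20 and 24 h (0.66 to 0.75), and it averaged 382 ± 30.0 CPM at 8 h, against 227 ± 31.4 CPM in controls (SD, n = 4 and n = 9). EIF3B, the subunit that binds A, I and G, rose at 8 h (0.95 ± 0.14, SE, edgeR adjusted p = 2.51e-06) and 20 h (0.75 ± 0.14, SE, edgeR adjusted p = 7.07e-05). Its call at 12 h (0.55) was lost without 12 h replicate 1 (0.38). EIF3D, known as a cap binder on some human mRNAs, was called higher at 8, 20 and 24 h (0.33 to 0.46), the first of which was 0.26 and not called without 8 h replicate 1. The EIF3D call at 8 h was also lost under column totals (0.27), and that at 24 h with the library sets as a term (0.27).

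Under TMM scaling EIF3H was called lower at 8, 16, 20 and 24 h (-0.78 to -0.50), EIF3E at 16 h and 24 h (-0.70 and -0.42), EIF3I at 16, 20 and 48 h (-0.48 to -0.39) and EIF3L at 12 h (-0.37). EIF3F and EIF3M, the remaining subunits, were called at no time, with changes between -0.20 and 0.27. Control libraries held 64.4 to 109 CPM (median 90.7) of EIF3J. After injury it had 55.9, 78.0, 83.4 and 87.1 CPM at 4 h, 98.1, 87.2, 70.9 and 104 CPM at 8 h, 77.6, 68.7, 68.6 and 95.2 CPM at 12 h and 68.1, 68.6, 72.9 and 69.8 CPM at 16 h. From 20 h on it had 45.7, 69.5, 76.7 and 84.0 CPM at 20 h, 49.8, 68.6, 73.3 and 68.9 CPM at 24 h and 50.5, 59.4, 51.6 and 48.5 CPM at 48 h. EIF3J, a loosely bound subunit at the decoding site, had all 4 libraries at 48 h below every control. It fell at 48 h (-0.73 ± 0.15, SE, edgeR adjusted p = 0.00103) and at 24 h (-0.42 ± 0.15, SE, edgeR adjusted p = 0.0182). Under column totals the change at 24 h had the other sign (0.08) and that at 48 h was -0.38, neither called, and without 24 h replicate 1 the change at 24 h was -0.32.

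Among factors of start codon choice and subunit joining, EIF6 was called higher at every time. EIF6 binds the large subunit and keeps it from joining the small one too early. EIF6 stood at 45.9 to 64.3 CPM in the 9 controls (median 52.5), at 72.5, 77.1, 67.3 and 68.8 CPM at 4 h and at 81.8, 83.6, 71.6 and 69.2 CPM at 8 h. Its 4 libraries held 82.8, 75.6, 94.5 and 87.5 CPM at 12 h, 98.6, 97.2, 91.8 and 102 CPM at 16 h and 109, 86.0, 100.4 and 132 CPM at 20 h. They held 120.2, 107, 142 and 118 CPM at 24 h and 112, 59.4, 79.3 and 57.4 CPM at 48 h. All 4 libraries exceeded every control from 4 to 24 h, and 2 of 4 did so at 48 h. Its log2 change was 0.50 ± 0.13 (SE, edgeR adjusted p = 0.00141) at 8 h, 0.85 ± 0.13 (SE, edgeR adjusted p = 3e-06) at 16 h and 1.17 ± 0.12 (SE, edgeR adjusted p = 1.41e-08) at 24 h. It was 0.40 ± 0.13 (SE, edgeR adjusted p = 0.0284) at 4 h, which was lost without 4 h replicate 2 (0.36), and 0.51 ± 0.13 (SE, edgeR adjusted p = 0.0051) at 48 h, which was lost without 48 h replicate 1 (0.27). The EIF6 call at 4 h was also lost under column totals (0.26) and with the library sets as a term (0.22). Its slope over the injured libraries, 0.14 ± 0.06 per doubling of time, was not called (SE, edgeR adjusted p = 0.0983).

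EIF1AD, named for a domain shared with eIF1A, rose most at 8 h (1.15 ± 0.16, SE, edgeR adjusted p = 1.05e-06), when it averaged 26.4 ± 5.36 CPM, against 11.9 ± 2.09 CPM in controls (SD, n = 4 and n = 9). It was also called higher at 4, 12, 20 and 24 h (0.62 to 0.96), the first of which was lost without 4 h replicate 2 (0.48), and its span overlaps that of BANF1. The EIF1AD call at 4 h was also lost under column totals (0.48) and with the library sets as a term (0.54). EIF1B, a close copy of the start codon factor eIF1, was called higher at 12 h (0.43) and lower at 48 h (-0.48). Both calls rested on single libraries, the first on 12 h replicate 3 (0.33 without it) and 12 h replicate 4 (0.40), the second on 48 h replicate 1 (-0.41) and 48 h replicate 3 (-0.40). Neither was called under column totals (0.38 and -0.16) or with the library sets as a term (0.32 and -0.47). EIF1AX, which scans with eIF1, was called higher at 8 h and 20 h (0.56 and 0.33). EIF1 itself and EIF5B, the factor that joins the subunits, were called at no time (-0.25 to 0.43), nor was EIF5A2, a copy of the hypusine-bearing factor eIF5A (-0.52 at 24 h, 95% interval -1.01 to -0.03). EIF5, EIF5A, EIF2S3, EIF4A2 and EIF4EBP3 were not analysed here.

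In elongation the 2 eEF1A genes moved apart. EEF1A2, the form of adult muscle fibres (chromosome 17, 62517811 to 62526379), fell at 16, 20 and 24 h, and EEF1A1, the form of most other cells (chromosome 1, 92421235 to 92425053), rose at 20, 24 and 48 h. EEF1A2 ranged over 6144 to 9164 CPM in the 9 controls (median 7679.8). It reached 6524, 6060.3, 6347 and 7958 CPM at 4 h, 8378, 6948, 6423 and 7189 CPM at 8 h and 4318, 4777, 5562 and 7984 CPM at 12 h. Later libraries held 4277, 3523, 5549 and 5029.6 CPM at 16 h, 7584, 3919, 3223 and 3286 CPM at 20 h, 3653, 4143, 2006 and 3409 CPM at 24 h and 1850.2, 7100.0, 3770.4 and 6089 CPM at 48 h. Every library at 16 h and 24 h was below the lowest control, as were 3 of 4 at 12, 20 and 48 h, with 12 h replicate 4, 20 h replicate 1 and 48 h replicate 2 within the controls. The change was -1.17 ± 0.27 (SE, edgeR adjusted p = 0.00063) at 24 h, -0.72 ± 0.27 (SE, edgeR adjusted p = 0.0237) at 20 h and -0.69 ± 0.27 (SE, edgeR adjusted p = 0.0287) at 16 h, and -0.66 at 48 h was not called (95% interval -1.19 to -0.12). The call at 24 h held in every alternative. At 20 h the call ended without 20 h replicate 2 (-0.67) or without 20 h replicate 3 or replicate 4 (-0.60 each). At 16 h it ended without 16 h replicate 1 (-0.66) or 16 h replicate 2 (-0.57), under column totals (-0.32), and with the library sets as a term (-0.77).

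Control libraries held 834 to 1330.1 CPM (median 1027) of EEF1A1. After injury it had 1224, 1082, 995 and 965 CPM at 4 h, 1225, 1171, 1149 and 894 CPM at 8 h, 1648, 1463, 1282 and 923 CPM at 12 h and 1216, 1149.8, 985 and 1059 CPM at 16 h. From 20 h on it had 1449.9, 1296, 1383 and 1897 CPM at 20 h, 1450.0, 1534, 1980.0 and 1727 CPM at 24 h and 2025, 901, 1876 and 987 CPM at 48 h. At 24 h all 4 libraries exceeded every control, while at 48 h 2 libraries stood above the controls and 2 among them. The change was 0.72 ± 0.18 (SE, edgeR adjusted p = 0.00105) at 24 h, 0.57 ± 0.18 (SE, edgeR adjusted p = 0.00821) at 20 h and 0.51 ± 0.18 (SE, edgeR adjusted p = 0.039) at 48 h. The call at 20 h was lost without 20 h replicate 4 (0.44) and the one at 48 h without 48 h replicate 1 (0.29), 48 h replicate 3 (0.35) or control replicate 2, 3, 7 or 8 (0.48 to 0.51). EEF1A1 has many near-identical processed copies in mammals, so its counts are uncertain where the counting could split reads. The ratio of EEF1A1 to EEF1A2 counts averaged 0.565 ± 0.287 at 24 h and 0.141 ± 0.0374 in controls (SD, n = 4 and n = 9), with no adjustment for length. The lowest ratio at 24 h was 0.370 and the highest in controls 0.216. At 48 h it averaged 0.469 ± 0.446 (SD, n = 4) and spanned 0.127 to 1.09 between libraries. Of the fibre markers at 24 h, CKM, the muscle creatine kinase, changed by -1.21 ± 0.33 (SE, edgeR adjusted p = 0.00266). DES, the fibre intermediate filament, changed by -0.80 ± 0.22 (SE, edgeR adjusted p = 0.00269) and MYH7 by -4.14 ± 0.75 (SE, edgeR adjusted p = 3.5e-05). TNNT3 was not called there (-0.42). At 16 h and 20 h DES and MYH7 were called lower, while CKM (-0.66 and -0.65) and TNNT3 (-0.07 and 0.05) were not called. The markers' part in the change of EEF1A2 was not tested.

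**Figure D5:**
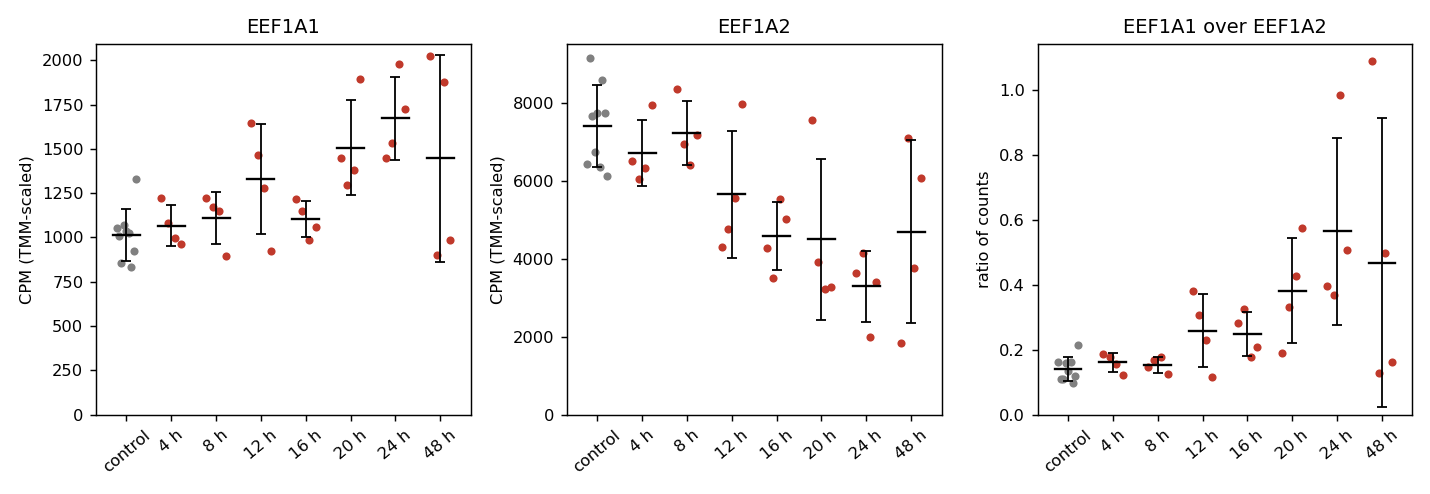
CPM of EEF1A1 and EEF1A2 and the ratio of their counts in each library (points) by group, with the mean and SD (line and bar). At 24 h the EEF1A1 libraries lie above and the EEF1A2 libraries below all controls, and at 48 h the ratios spread from 0.127 to 1.09.

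The eEF1B subunits reload eEF1A with GTP. Of the 5 eEF1 genes 0 were called higher and 3 lower at 16 h and 1 higher and 3 lower at 24 h, but 0 and 1 at 16 h and 2 and 1 at 24 h under column totals. Of all genes 25.3 and 27.8% were called higher and lower at 16 h and 26.8 and 27.1% at 24 h. Under column totals these shares were 38.7 and 14.4% at 16 h and 48.2 and 12.5% at 24 h. EEF1G stood at 1128 to 2381 CPM in the 9 controls (median 1554), at 1508, 1174, 1306 and 1589 CPM at 4 h and at 1691, 1492, 1306 and 1422 CPM at 8 h. Its 4 libraries held 1097, 1084, 1402 and 1433 CPM at 12 h, 821, 831, 1006 and 966 CPM at 16 h and 1724, 1144, 1197 and 1399 CPM at 20 h. They held 903, 1049, 951 and 1002 CPM at 24 h and 923, 1256, 985 and 1323 CPM at 48 h. EEF1G, the gamma subunit, had all libraries at 16 h and 24 h below every control and 2 of 4 at 12 h and 48 h. Its log2 change was -0.87 ± 0.17 (SE, edgeR adjusted p = 0.00012) at 16 h, -0.77 ± 0.17 (SE, edgeR adjusted p = 0.000439) at 24 h and -0.56 ± 0.17 (SE, edgeR adjusted p = 0.0183) at 48 h. Under column totals the change at 24 h was -0.27 and that at 48 h -0.24, neither called, and the call at 48 h was also lost without 48 h replicate 1 (-0.48) or 48 h replicate 3 (-0.51). EEF1D, the delta subunit, was called lower at 24 h (-0.42, and 0.06 under column totals) and 48 h (-0.60). The first was lost without 24 h replicate 3 (-0.26), 24 h replicate 1 (-0.46) or control replicate 2, 5 or 6 (-0.41 to -0.35), and the second without 48 h replicate 1 or replicate 3 (-0.55 each). EEF1B2, the remaining exchange subunit, was called lower at 16 h (-0.53).

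EEF2, the translocase, averaged 3612 ± 406 CPM at 8 h, against 2814 ± 535 CPM in controls (SD, n = 4 and n = 9). It was called at 8 h alone (0.36 ± 0.15, SE, edgeR adjusted p = 0.0451), a call that ended without any 1 of 9 of the 13 libraries compared, the value then lying between 0.30 and 0.38. At 24 h its change was 0.19 (95% interval -0.12 to 0.50). EEF2K, the kinase that inactivates eEF2 when calcium and calmodulin bind it, varied more. EEF2K ranged over 29.9 to 107 CPM in the 9 controls (median 47.5). It reached 69.5, 128, 94.1 and 128 CPM at 4 h, 52.5, 67.7, 64.7 and 72.9 CPM at 8 h and 58.8, 68.6, 60.6 and 118 CPM at 12 h. Later libraries held 149, 119, 129.8 and 99.6 CPM at 16 h, 90.4, 57.6, 58.2 and 47.1 CPM at 20 h, 119, 167, 163 and 164 CPM at 24 h and 97.8, 128, 69.3 and 52.6 CPM at 48 h. All 4 libraries at 24 h and 3 of 4 at 16 h were above every control, of which the highest, at 107 CPM, stood far from the other 8. EEF2K rose at 24 h (1.49 ± 0.24, SE, edgeR adjusted p = 6.93e-06) and at 16 h (1.19 ± 0.24, SE, edgeR adjusted p = 0.00014), and these calls held in every alternative. It was called at 4 h (0.94 ± 0.24, SE, edgeR adjusted p = 0.00782), but not without 4 h replicate 2 (0.83) or with the library sets as a term (0.6). At 48 h the call (0.67 ± 0.24, SE, edgeR adjusted p = 0.0477) ended without any 1 of 9 libraries, and without 48 h replicate 2 the change was 0.42. At 8, 12 and 20 h it was not called (0.21 to 0.49).

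Over the 28 injured libraries, without the controls, 12 of the 50 members had a slope on log2 hours, 3 rising and 9 falling. Of all genes 24.0% had one, 13.5% rising and 10.5% falling. The risers were EIF4E3, EEF1A1 (0.18 ± 0.06 per doubling of time, SE, edgeR adjusted p = 0.0401) and EIF3L. EIF4G2 (-0.26 ± 0.09, edgeR adjusted p = 0.0273), EIF1B (-0.23 ± 0.05, edgeR adjusted p = 0.00136) and EEF1A2 (-0.23 ± 0.08, edgeR adjusted p = 0.0423) had the steepest falls. Under column totals the counts were 23 rising and 0 falling, where 50.5% of all genes rose and 2.43% fell, so the direction of these slopes depends on the scale for members and table alike. The number called was 7 without 4 h replicate 2 or 4 h replicate 3 and 6 without 48 h replicate 1 or 48 h replicate 3.

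At 48 h the libraries split in EIF4A1, EIF6 and EEF1A1, genes chosen here after their values were seen. Replicates 2 and 4 held 107 and 99.6 CPM of EIF4A1, 59.4 and 57.4 CPM of EIF6 and 901 and 987 CPM of EEF1A1, each within the controls. Replicates 1 and 3 held 377 and 217 CPM of EIF4A1, 112 and 79.3 CPM of EIF6 and 2025 and 1876 CPM of EEF1A1, each above them. Summed fibre markers at 48 h ran from 14446 to 50745 CPM, beside 44196 to 75829.8 CPM in controls. EIF3J and EEF2K did not show that split, since EIF3J was below every control in all 4 libraries at 48 h and EEF2K was highest in replicate 2 (128 CPM).

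Other genes of translation are given by lists chosen for their function with earlier results known. Of 7 termination and recycling genes in the table (of 8 listed), 4 were called higher and 2 lower at 8 h, with a median log2 change of 0.70 beside -0.07 for all genes. GSPT1, the release factor eRF3a, changed by 1.07 ± 0.12 (SE, edgeR adjusted p = 5.49e-08) at 8 h, and ABCE1, which splits ribosomes after termination, by 0.85 ± 0.18 (SE, edgeR adjusted p = 0.000187). Of 8 poly(A)-binding and cap-complex regulators (of 10 listed), 3 were called higher and 2 lower at 8 h with a median of -0.01. PABPC1, the main poly(A)-binding protein and a partner of eIF4G, changed by 1.22 ± 0.21 (SE, edgeR adjusted p = 1.65e-05) at 8 h and by 1.21 ± 0.21 (SE, edgeR adjusted p = 2.56e-05) at 16 h.

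The counts of related lists can be read against the shares of all genes called higher and lower, 25.8 and 28.2% at 8 h, 25.3 and 27.8% at 16 h and 26.8 and 27.1% at 24 h under TMM scaling, and 38.7 and 14.4% at 16 h and 48.2 and 12.5% at 24 h under column totals. Of 16 genes of the integrated stress response (of 18 listed), which act downstream of phosphorylated eIF2 or reverse it, 9 were called higher and 3 lower at 8 h, with a median of 0.66. At 24 h 4 were called higher and 3 lower (median 0.09), or 7 and 2 (median 0.61) under column totals. CEBPG, a partner of ATF4, changed by 1.88 ± 0.13 (SE, edgeR adjusted p = 5.16e-12) at 8 h. PHGDH of the same list went the other way at 8 h (-1.55 ± 0.44, SE, edgeR adjusted p = 0.00393), at a mean of 0.775 CPM against 2.28 CPM in controls. At 4 h PHGDH was called higher (2.07) and at 20 h lower (-1.93). Of 5 MYC and partner genes (of 7 listed), 4 were called higher and 1 lower at 8 h (median 1.35). MYC, a transcription factor for which EIF4E and EIF4A1 are known targets in human cells, changed by 3.14 ± 0.43 (SE, edgeR adjusted p = 5.49e-07) at 8 h, when it averaged 158 ± 70.7 CPM, against 17.8 ± 8.12 CPM in controls (SD, n = 4 and n = 9).

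Of 20 mTORC1 pathway genes (of 23 listed), which act on the eIF4E-binding proteins and on eEF2 kinase, 2 were called higher and 7 lower at 24 h (median -0.12), or 8 and 3 (median 0.35) under column totals. RHEB, the direct activator of mTORC1, changed by 1.08 ± 0.16 (SE, edgeR adjusted p = 2.2e-06) at 24 h, and AKT2, a kinase upstream of it, by -0.93 ± 0.13 (SE, edgeR adjusted p = 1.44e-06). Of 6 hypusine and diphthamide enzymes (of 9 listed), which modify eIF5A and eEF2, 2 were called higher and 2 lower at 8 h (median -0.02), and DPH2, an early enzyme of the diphthamide path, changed by 0.91 ± 0.21 (SE, edgeR adjusted p = 0.000634). Among 50 rows listed as cytosolic ribosomal proteins, 3 were called higher and 27 lower at 16 h (median -0.50), but 3 and 9 (median -0.13) under column totals. At 24 h the counts were 4 and 5 (median -0.15) against 23 and 1 (median 0.35) under column totals. That list includes the ribosomal protein-like gene RPL7L1, called higher at 16 h (0.71 ± 0.15, SE, edgeR adjusted p = 0.000312). Ribosomal proteins have many near-identical copies, and their counts are uncertain.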

How the data were processed

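Per the labels' protocols, Trizol-extracted RNA of flash-frozen pig muscle was made into NEBNext Ultra libraries and read in pairs on a HiSeq-2500 instrument. The submitters' processing notes name Sscrofa11.1 as the build, HISAT2 2.2.1, HTSeq, Trimmomatic, FastQC and MultiQC. No annotation release or strand setting is stated, so reads of overlapping or antisense genes cannot be told apart. The authors deposited raw counts per gene, 9418 rows by symbol and 37 columns, each matched to a library by its title. Every row reaches 101 counts in some library, so genes low in every library are absent, and the totals of 9.86 to 22.88 M need not equal the sequencing depth. A floor of 3 counts equals 0.108 to 0.378 CPM, for counting error only. Every pair of same-group libraries differed by more than sampling noise.

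Counts were scaled by TMM, filtered with filterByExpr (9411 genes kept) and fitted by group alone with edgeR's robust quasi-likelihood models (edgeR 4.0.16, limma 3.58.1, R 4.3.3). Contrasts were every time over control, all 7 times jointly, and a slope on log2 hours within the 28 injured libraries, with Benjamini-Hochberg adjustment over all genes and a threshold of 0.05. The fits were checked on simulated counts. Alternatives were RLE factors, column totals, other filters (none, or 5 CPM in 4 libraries), DESeq2 1.42.0, a replicate block, 5 library sets as a term (split by totals over 20 M, then by C1QBP at 8 CPM, NDUFAF8 at 4 CPM and ND6 at 32 CPM), fewer libraries, a slope on hours and each library left out.

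Members and lists were chosen with earlier results of these data known. Members were named by rule: the 3 smallest p-values of the 7 times together in each role, the 2 largest called rises and falls at each time, and 13 factors regardless of values. This gave 32 named members, 13 of them with every library's value, and the others are given by counts and ranges. Gene spans are from RefSeq's table for Sscrofa11.1, which held all 50 symbols.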

Additional observations from a re-analysis of the deposited data

Results flagged for a closer look

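In 256 groups of named members, 16 values (6.25%) stood far from the others of their group, by a gap test that picks about 1 in 20 groups by chance. None of these values was left out, and no reason for them was tested.

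Among elongation genes, EEF1A2 stood at 7584 CPM in 20 h replicate 1, where the other 3 libraries held 3223 to 3919 CPM. EEF1A1 stood at 1330.1 CPM in control replicate 9, above 834 to 1072 CPM in the other 8. In 12 h replicate 3 EEF1D was high at 537 CPM (others 340.1 to 361) and EEF2 low at 1794 CPM (others 2558 to 2699). EEF2K was high at 118 CPM in 12 h replicate 4 (others 58.8 to 68.6), low at 119 CPM in 24 h replicate 1 (others 163 to 167) and high at 107 CPM in control replicate 7 (others 29.9 to 65.3).

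Among initiation genes, EIF4EBP2 was high at 246 CPM in 8 h replicate 4 (others 137 to 147) and EIF4G3 high at 223 CPM in 16 h replicate 3 (others 187 to 189.7). EIF1AD was high at 22.4 CPM in 24 h replicate 3 (others 16.4 to 17.4) and low at 7.15 CPM in control replicate 1 (others 10.9 to 14.4). EIF2AK1 was low at 9.58 CPM in 12 h replicate 3 (others 16.4 to 17.3), and EIF2AK3 low at 15.6 CPM in 20 h replicate 1 (others 23.1 to 24.4). EIF2D was high at 35.4 CPM in 8 h replicate 4 (others 29.4 to 29.8) and low at 20.9 CPM in 16 h replicate 2 (others 25.1 to 25.8). EIF3D was high at 139 CPM in 48 h replicate 1 (others 118 to 120.2). The 12 h replicate 3 stood apart in EEF1D, EEF2 and EIF2AK1, 20 h replicate 1 in EEF1A2 and EIF2AK3, and 8 h replicate 4 in EIF2D and EIF4EBP2.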

How the results depend on the processing

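Counts of members called at 8, 12, 20 and 24 h and over the 7 times together stayed within 1.5 times under every alternative run. With the library sets as a term the count was 1 at 4 h, 14 at 16 h (11 higher and 3 lower) and 5 at 48 h. It was 3 at 4 h without the set low in NDUFAF8, and 3 at 48 h with only controls and that time in the fit. Under column totals 17 members were called at 48 h and 23 had a slope, and without libraries above 20 M 7 had a slope. Leaving out each library gave 2 to 11 at 4 h, 1 to 12 at 48 h and 6 to 14 for the slope. It gave 19 to 25 (8 h), 10 to 17 (12 h), 19 to 25 (16 h), 18 to 26 (20 h), 26 to 31 (24 h) and 39 to 43 (all times together). The cause was not tested.

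Of 104 calls of named members, DESeq2, no filter and the stricter filter kept all 104, RLE factors 103 (all but EEF2K at 48 h), column totals 82, the replicate block 81, the sets 71 and fewer libraries in the fit 89. Column totals turned EEF1D at 24 h to 0.06 and EIF3J at 24 h to 0.08. Same-numbered libraries varied together little (mean r 0.0252 over 112 pairs, against -0.00636 for differently numbered pairs, and 12 of 32 libraries closest to their own number). The numbers were therefore not taken as a pairing, but this check cannot tell which libraries share an animal. With the replicate number as a block the counts were 6 (4 h), 20 (8 h), 17 (12 h), 20 (16 h), 23 (20 h), 27 (24 h), 9 (48 h), 40 (all times together) and 9 (slope). Having 4 libraries a time limits what small changes can be called.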
